A study of Mus musculus with 32 samples.

Results

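*Lkb1* was switched back on in established lung tumors that lacked p53, and RNA from the sorted tumor cells was compared with that of tumors in which the gene stayed off. The libraries were chosen by the cohort named in the labels. They were 4 restored libraries from 4 animals and 7 non-restored libraries from 4 animals, 11 of the 32 libraries in the series. All 8 animals carried Trp53flox/flox, Lkb1XTR/XTR and a Rosa26LSL-tdTomato reporter, and tumors were started by Lenti-Cre and left to grow for 16 to 19 weeks. Cre deletes the floxed part of *Trp53* and inverts the XTR gene trap so that it silences *Lkb1*. FLPo-ERT2, a recombinase that enters the nucleus when tamoxifen is present, later removes the trap. The restored animals carried FLPo-ERT2 and received 4 mg doses of tamoxifen during the last 2 weeks. The non-restored group pooled 2 control arms. Animals 1 and 2 carried FLPo-ERT2 and received corn oil vehicle, and animals 3 and 4 had no FLPo-ERT2 and received tamoxifen.

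LKB1, encoded by *Stk11*, is a serine-threonine kinase that works in a complex with the pseudokinase STRAD and the scaffold MO25. It activates AMPK and a family of related kinases, among them the salt-inducible kinases, which keep the CRTC coactivators of CREB out of the nucleus, and the MARK kinases of cell polarity. *Lkb1* is among the most often inactivated tumor suppressors of human lung adenocarcinoma. In the lung, alveolar type II (ATII) cells make surfactant, and they are a main cell of origin of lung adenocarcinoma.

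Depth ranged from 2145542 to 8258357 expected counts per animal and from 1875573 to 5536458 per library. Titles placed animals 1 and 2 of each group in one series (JB) and animals 3 and 4 in another (SP). Among non-restored animals this split is also the split between the control arms, so the arm and the title series cannot be told apart. All restored animals were female, and the non-restored animals were female, male, male and female. Sex-linked genes matched the label in 8 of 8 animals. The cells were sorted after exclusion of CD45, CD31, F4/80 and Ter119. The lung epithelial markers *Epcam*, *Krt8*, *Krt18* and *Nkx2-1* were present in every animal, whereas the summed level of 12 blood cell markers was 12 to 43.6 CPM (counts scaled to the library total) and that of 4 globin genes was at most 3.64 CPM.

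Several libraries stood apart. Restored animal 1 held 1568 CPM of 7 fibroblast markers, against 2.26 to 384 CPM in the other animals. Non-restored animal 4 held 12885 CPM of 6 airway markers, against 35.1 to 1188 CPM elsewhere, and nearly all of it was the mucin gene *Muc5b*. In restored animal 2 the interferon genes summed to 4834 CPM, against 866 to 1483 CPM in the others. Non-restored animal 1 was covered by libraries whose titles end in Bulk or T1, terms the labels do not explain, and these differed from each other. Its ATII genes summed to 69414 CPM in the T1 library and to 24577 and 24625 CPM in the Bulk libraries. Over all genes the median absolute log2 difference between T1 and Bulk was 0.54 in this animal and 0.29 in non-restored animal 2. Between the means of the restored and non-restored groups it was 0.22. The group means average 4 animals each and the T1 and Bulk values fewer libraries, so the noise in these values is not alike. Libraries of one animal were summed, and counts given below were repeated without restored animal 1 and non-restored animal 4.

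**Figure D1:**
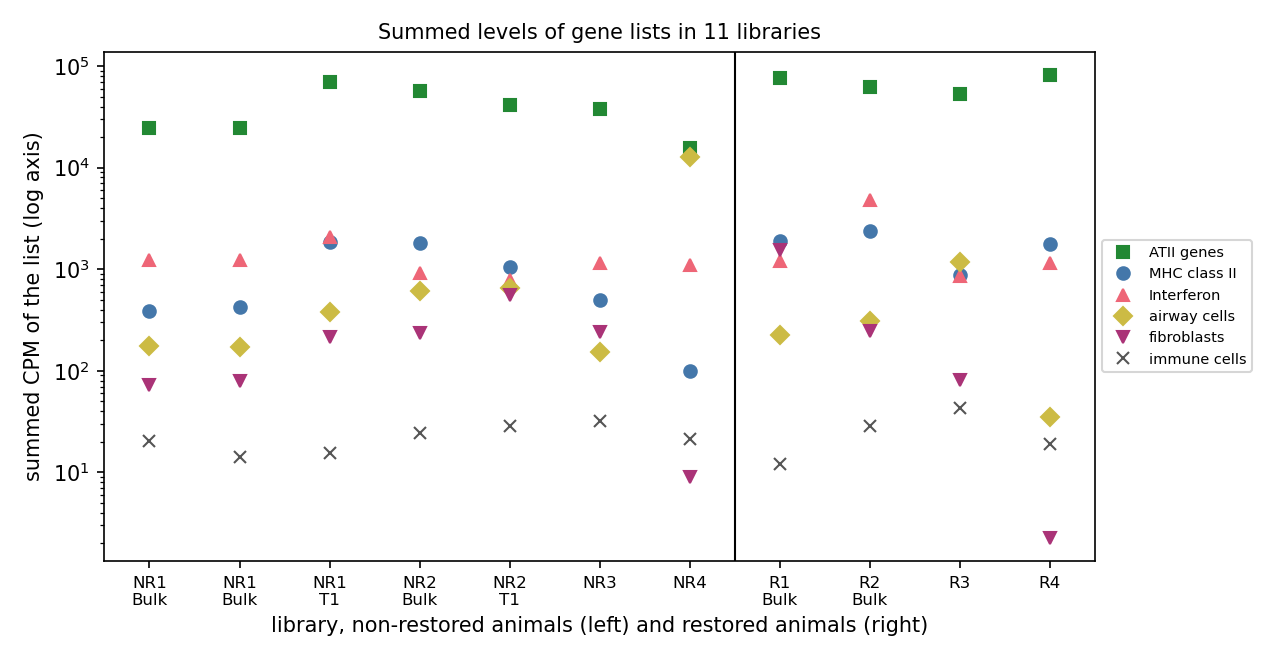
Summed CPM of 6 gene lists (log axis) in each of the 11 libraries, with non-restored animals NR1 to NR4 on the left and restored animals R1 to R4 on the right and the title ending under the animals that have one. ATII genes (squares) are lowest in NR4 and in the Bulk libraries of NR1, the airway markers of NR4 reach 12885 CPM, the fibroblast markers of R1 reach 1568 CPM and the interferon genes of R2 reach 4834 CPM.

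The targeted gene was examined first. *Stk11* (chr10:80115803-80130682, mm10, plus strand, with a first intron of 7894 bases) was 0.506, 0.31, 0 and 0.456 CPM in non-restored animals 1 to 4 and 13.2, 8.55, 10.9 and 15.2 CPM in restored animals 1 to 4. Every restored animal lay far above every non-restored one. The 7 non-restored libraries together held 7 *Stk11* counts, with at most 2 in a library, and the 4 restored libraries held 191, between 24 and 67 each. The pooled ratio was 37.9, with an exact 95% interval of 18 to 95.5 that covers counting error only. Means were 0.318 CPM ± 0.228 (SD, n = 4) and 11.9 CPM ± 2.86 (SD, n = 4), and the exact permutation test of log2 CPM (two-sided) gave 0.0286, the smallest p that 4 against 4 can give. In the fit across all genes by edgeR's quasi-likelihood test, the log2 fold change was 5.15 (SE 0.575), and the Benjamini-Hochberg adjusted p, 0.0587, missed the threshold of 0.05. Leaving out non-restored animal 3, where the count was 0, brought the adjusted p to 0.0388. Set on one scale with the *Trp53* wild-type tumors of the series, restored animals reached 74.1% of the *Stk11* level of restored wild-type tumors. Those wild-type tumors had grown longer, for 24 to 27 weeks. *Trp53* (chr11:69580359-69591873) was 1.39, 4.96, 2.49 and 1.37 CPM in non-restored and 3.93, 2.39, 3.64 and 2.72 CPM in restored animals, and these ranges overlap (log2 fold change 0.26, SE 0.513). The level in restored animals was 10.1% of that in restored *Trp53* wild-type tumors.

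**Figure D2:**
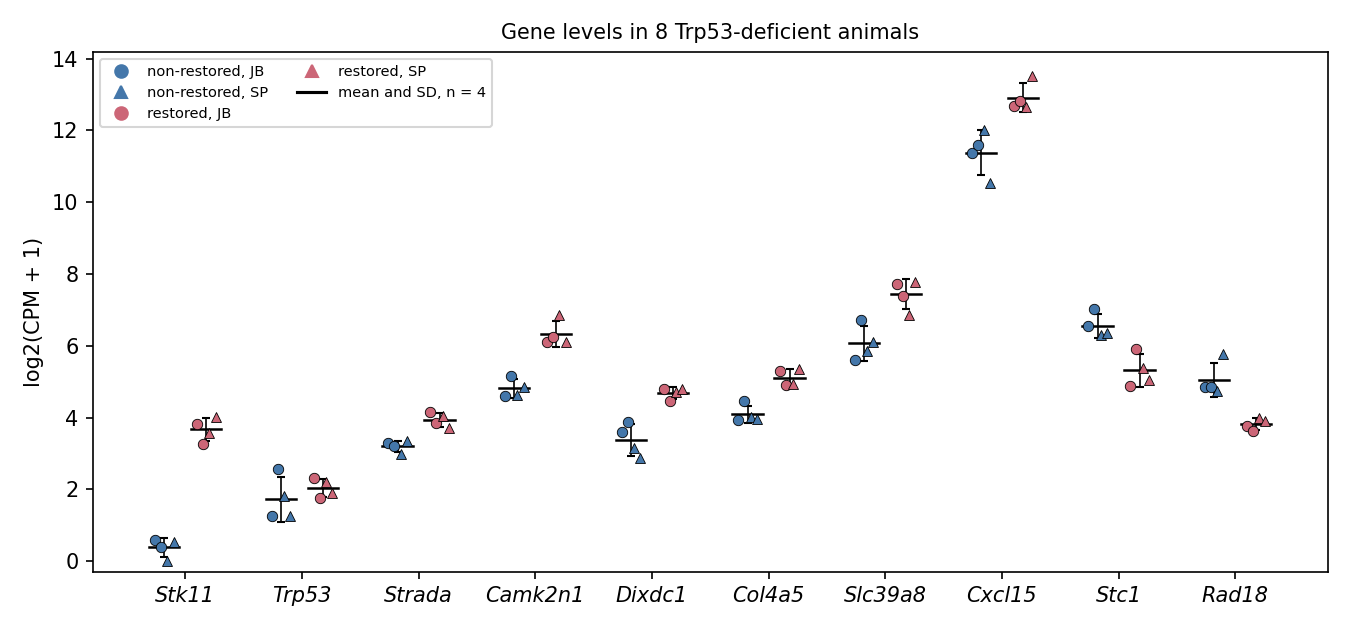
Levels of 10 genes as log2(CPM + 1) in the 4 non-restored animals (blue) and 4 restored animals (red), with circles for JB and triangles for SP titles and bars for the mean and SD. *Stk11*, *Strada*, *Camk2n1*, *Dixdc1*, *Col4a5*, *Slc39a8* and *Cxcl15* are higher in every restored animal, *Stc1* and *Rad18* are lower in every restored animal, and *Trp53* overlaps.

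No gene passed the test across all genes. edgeR's quasi-likelihood test called 0 (0%) of 12518 genes at an adjusted threshold of 0.05, and 748 (5.98%) had an unadjusted p under 0.05. These were 407 higher (3.25%) and 341 lower (2.72%) in restored animals. Their number was 1214 without non-restored animal 2 and 491 without non-restored animal 4. DESeq2 called 23 of the 12518 genes (0.184%), 12 higher and 11 lower, and gave an adjusted p to 7409 of them. In 261 genes (2.08%) the lowest restored animal exceeded the highest non-restored one, and in 192 (1.53%) the order was reversed. With the 11 libraries kept apart instead of summed, 113 of these 453 genes still separated the groups, as did 16 of the 35 among the genes named in the text. In 16 of those 35, the T1 library of non-restored animal 1 lay at or past the nearest restored library. The median log2 fold change of all genes was 0.02 and its median SE was 0.28.

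Among the genes with the smallest p, the first after *Stk11* was *Camk2n1* (chr4:138454314-138460123), which encodes an inhibitor of the calcium/calmodulin kinase CaMKII. Its level was 23.2, 34.7, 23.8 and 27.8 CPM in non-restored animals and 67.8, 74.8, 115 and 67.2 CPM in restored animals, and the lowest restored animal was far above the highest non-restored one. The log2 fold change was 1.57 (SE 0.227), with an edgeR adjusted p of 0.273 and a DESeq2 adjusted p of 1.19e-05. *Camk2n1* had also risen on restoration in *Trp53* wild-type tumors (log2 fold change 1.10, edgeR adjusted p 0.00469). *Pdzk1ip1*, a small membrane protein that binds PDZ domains, was 6.96, 8.53, 6.04 and 4.1 CPM without and 13.9, 15.5, 25 and 21.9 CPM with restoration (log2 fold change 1.54, SE 0.296). *Dixdc1*, a Wnt pathway protein that MARK1 can phosphorylate, was 11.1, 13.6, 7.82 and 6.38 CPM and 26.6, 20.9, 25 and 26.9 CPM (log2 fold change 1.33, SE 0.259). For *Dixdc1* the non-restored animals lay below all restored ones, but the T1 library of non-restored animal 1 held 21.2 CPM, inside the restored range. *Col4a5*, the alpha 5 chain of basement membrane collagen IV, was 14.2, 20.9, 15.1 and 14.6 CPM without restoration and 37.9, 28.8, 29.5 and 39.6 CPM with it (log2 fold change 1.07, SE 0.207). The animals of the groups did not overlap for any of these genes, and the edgeR adjusted p of the last 3 was 0.803 each. For *Col4a5* the T1 library of non-restored animal 2 held 29.9 CPM, inside the restored range. DESeq2 called *Dixdc1* (adjusted p 0.0116) and *Col4a5* (0.0129).

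Of the genes that were lower in restored animals, *Pgm5*, which encodes a phosphoglucomutase-like protein of adherens junctions, had the smallest p. It was 20.8, 14.7, 10.7 and 2.74 CPM in non-restored and 2.31, 1.19, 0.909 and 1.13 CPM in restored animals (log2 fold change -3.11, SE 0.59). *Rad18*, a ubiquitin ligase that acts on PCNA at stalled replication forks, was 27.7, 27.6, 25.8 and 53.4 CPM and 12.5, 11.3, 15 and 14 CPM (log2 fold change -1.34, SE 0.268). *Stc1*, the secreted glycoprotein stanniocalcin, was 93.4, 129, 77.1 and 81.2 CPM without restoration and 28.7, 59.6, 40.9 and 32.1 CPM with it (log2 fold change -1.24, SE 0.261). For all of these genes the animals of the groups did not overlap, and the edgeR adjusted p was 0.803 each. *Ap4s1*, a subunit of the AP-4 adaptor of vesicle transport, was 22.3, 17.2, 24.9 and 21.9 CPM and 11.8, 11.9, 12.3 and 12.4 CPM (log2 fold change -0.83, SE 0.19). *Bmp3*, a divergent BMP ligand, was 189, 91.2, 112 and 78.4 CPM and 57.8, 52.9, 51.4 and 31.9 CPM (log2 fold change -1.28, SE 0.297). *Rad18*, *Stc1* and *Bmp3* were among the DESeq2 calls. The separation held in single libraries for *Pgm5* and *Ap4s1* but not for *Rad18*, *Stc1* and *Bmp3*. In the T1 library of non-restored animal 1, *Rad18* was 4.25 CPM, *Stc1* was 40.6 CPM and *Bmp3* was 19.7 CPM, each inside or below the range of the restored animals, while its Bulk libraries held 40.0 and 41.1 CPM of *Rad18* and 291 and 261 CPM of *Bmp3*.

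The remaining DESeq2 calls, chosen after their values were seen, included 2 of the ATII list. *Cxcl15* (lungkine, a chemokine of lung epithelium) and *Slc39a8* (the zinc and manganese importer ZIP8) are described with the ATII genes below. *Gm43085* (chr5:90803261-90806392), which starts just past the 3' end of *Cxcl15* (chr5:90794534-90803067) on the same strand, was 402, 757, 897 and 328 CPM and 1582, 1914, 1518 and 1973 CPM, and reads of these neighbors may not be fully separated. The kinase gene *Wee1*, whose product inhibits CDK1, was 27.3, 31.8, 21.3 and 19.6 CPM in non-restored and 60.8, 45.3, 40.4 and 63.4 CPM in restored animals, with no overlap (DESeq2 adjusted p 0.0207). *Arid5b*, a DNA-binding coregulator, was 177, 163, 181 and 137 CPM and 301, 292, 217 and 259 CPM, also without overlap (DESeq2 adjusted p 0.0277). *Camk2n1*, *Wee1* and *Arid5b* were the 3 DESeq2 calls that edgeR also called in *Trp53* wild-type tumors.

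Among the partners of LKB1, the pseudokinase gene *Strada* was 8.74, 8.22, 6.93 and 9.12 CPM in non-restored and 16.7, 13.5, 15.5 and 12 CPM in restored animals, so that every restored animal was higher, although the T1 library of non-restored animal 1 held 13.9 CPM (log2 fold change 0.81, SE 0.225, unadjusted p 0.00507, edgeR adjusted p 0.803). The alternative pseudokinase gene *Stradb* (log2 fold change -0.06, SE 0.297) and the MO25 genes *Cab39* (-0.06, SE 0.13) and *Cab39l* (0.27, SE 0.237) overlapped between the groups. Of 14 kinases that LKB1 activates 11 were tested, and none had an unadjusted p under 0.05, against 5.98% of all genes. *Sik1*, a salt-inducible kinase whose own gene responds to CREB, was 135, 112, 150 and 300 CPM without restoration and 66.4, 156, 80 and 85.5 CPM with it (log2 fold change -0.83, SE 0.368, unadjusted p 0.0501). Restored animal 2 was higher than 3 of the 4 non-restored animals. In *Trp53* wild-type tumors the log2 fold change of *Sik1* was -0.84 (edgeR adjusted p 0.0134). The AMPK catalytic subunit genes *Prkaa1* and *Prkaa2* had log2 fold changes of -0.05 (SE 0.206) and 1.04 (SE 0.576), and the polarity kinase genes *Mark2* and *Mark3* had -0.29 (SE 0.295) and 0.06 (SE 0.165).

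ATII genes were higher in restored animals as a group. The list held 31 genes for surfactant proteins, lamellar bodies and other ATII products, and 30 were tested. Of these 28 had a log2 fold change above 0, against 53.1% of all genes, and the median was 0.74, against 0.02 for all genes. None passed the adjusted threshold in edgeR, and 8 had an unadjusted p under 0.05, 7 higher and 1 lower, against 3.25% higher and 2.72% lower over all genes. Summed over the list, non-restored animals held 38786, 50583, 38319 and 15616 CPM and restored animals 76841, 63241, 53256 and 82605 CPM, so that the lowest restored animal was above the highest non-restored one. Single libraries did not keep this separation, since the T1 library of non-restored animal 1 (69414 CPM) was above restored animals 2 and 3. The lowest sum belonged to non-restored animal 4, the animal with the *Muc5b* reads. Without it and restored animal 1, the median was 0.41 and 25 of the 30 genes were still above 0. The part of the *Muc5b* reads and of the fibroblast marker reads in this result was not tested. In bulk RNA, fewer cells with a gene switched on and less RNA of that gene per cell cannot be told apart.

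The collectins and hydrophobic surfactant proteins differed among themselves. *Sftpa1*, the collectin SP-A, was 4546, 5530, 2250 and 1200 CPM in non-restored and 13083, 7724, 6239 and 14465 CPM in restored animals (log2 fold change 1.62, SE 0.487, unadjusted p 0.00867). *Sftpc*, which encodes the ATII-restricted surfactant protein C, was 7154, 12990, 6300 and 604 CPM and 23349, 17127, 14083 and 18171 CPM (log2 fold change 1.43, SE 0.706, unadjusted p 0.0762). Both genes were higher in every restored animal, but not in every library. In the T1 library of non-restored animal 1 *Sftpc* was 20210 CPM and *Sftpa1* 10651 CPM, against 777 and 880 CPM of *Sftpc* in its Bulk libraries, and the Bulk library of non-restored animal 2 held 15554 CPM of *Sftpc*. *Sftpb*, surfactant protein B, was 5526, 6794, 6664 and 3738 CPM and 4520, 5308, 6082 and 7539 CPM and overlapped (log2 fold change 0.05, SE 0.245). *Sftpd*, a second collectin, also overlapped (log2 fold change 0.59, SE 0.334). The lamellar body genes *Abca3*, a phospholipid transporter, and *Lamp3* had log2 fold changes of 0.49 (SE 0.223) and 0.53 (SE 0.398), and the protease gene *Napsa* had 0.18 (SE 0.331).

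*Cxcl15* was the ATII gene with one of the clearest separations, at 2667, 3109, 4159 and 1470 CPM in non-restored and 6487, 7214, 6454 and 11742 CPM in restored animals (log2 fold change 1.49, SE 0.332, unadjusted p 0.00122, DESeq2 adjusted p 0.00813). *Slc39a8* was 47.4, 104, 56.5 and 68 CPM without restoration and 208, 167, 115 and 217 CPM with it (log2 fold change 1.36, SE 0.28, DESeq2 adjusted p 0.00813). *S100g*, the vitamin D-dependent calcium-binding protein calbindin-D9k, was 77.1, 106, 49.4 and 26.5 CPM and 228, 192, 134 and 114 CPM (log2 fold change 1.36, SE 0.406, unadjusted p 0.00914). For each of these the restored animals were all above the non-restored ones, and in single libraries this held for *Cxcl15* and *Slc39a8* but not for *S100g* (133 CPM in the T1 library of non-restored animal 1). *Lyz2*, the lysozyme of ATII cells and macrophages, was 925, 977, 971 and 44.7 CPM and 7281, 3082, 2186 and 2427 CPM, without overlap between animals (log2 fold change 2.36, SE 0.854, unadjusted p 0.0251). In the T1 library of non-restored animal 1 *Lyz2* was 2387 CPM, inside the restored range. Its paralog *Lyz1*, with which it may share reads, was 4.56, 12.4, 13.7 and 5.93 CPM and 72.9, 88.3, 19.1 and 1.58 CPM, and restored animal 4 was the lowest of all. *Lpcat1*, which makes surfactant phosphatidylcholine, was 385, 774, 471 and 158 CPM and 1075, 840, 752 and 914 CPM (log2 fold change 1.00, SE 0.399). *Il33* and *Fabp5* went the other way. *Il33*, the alarmin interleukin 33, was 2102, 1234, 2782 and 2580 CPM in non-restored and 342, 1690, 571 and 541 CPM in restored animals, where only restored animal 2 was in the non-restored range (log2 fold change -1.47, SE 0.501, unadjusted p 0.0179). *Fabp5*, a fatty acid-binding protein, had a log2 fold change of -1.18 (SE 0.667). Within the JB animals the median difference of the list was 0.38 and within the SP animals it was 1.21, and 22 of 30 genes were higher in both, against 29.6% of all genes. Taking only the T1 libraries of the non-restored animals that have one gave a median of 0.51, and leaving out 1 animal at a time gave 0.44 (without non-restored animal 4) to 1.08 (without non-restored animal 2).

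**Figure D3:**
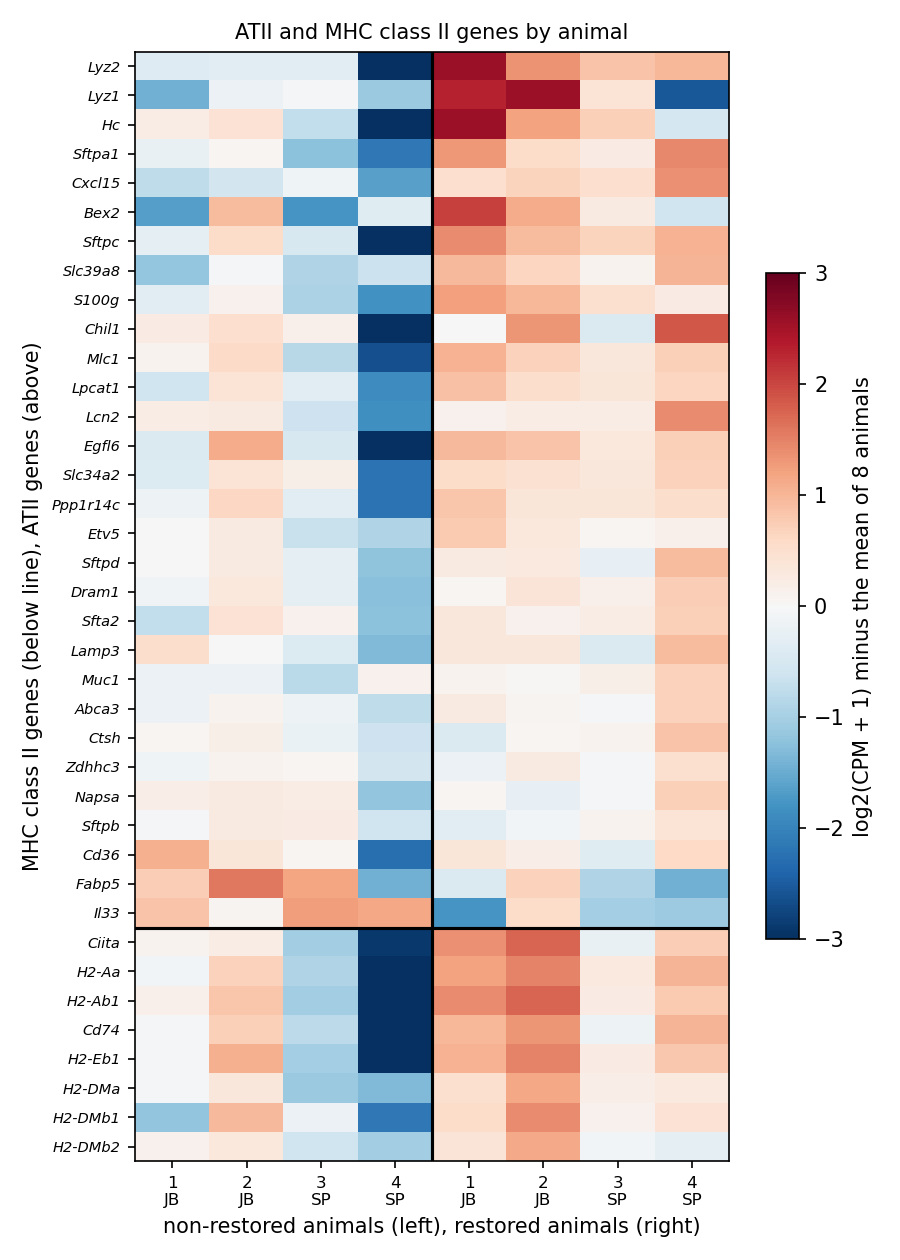
Each row is a gene, 30 ATII genes above the line and 8 MHC class II genes below it, and each column an animal, with color for log2(CPM + 1) minus the mean of the 8 animals, cut off at 3 in either direction. Restored animals (right) are mostly red, and the deepest blue is in non-restored animal 4, whose summed ATII level was 15616 CPM.

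C/EBP factors bind promoters of several surfactant genes, and the study examined them in this tumor model. Of 25 ATII genes with a promoter in the RefSeq table (GRCm38.p6), 7 held the letters TTGCNNAA, a core C/EBP motif, on either strand of the 250 bases before the start, against 9.55% of all 27025 promoters and 7.51% of the 9097 promoters of tested genes. *S100g*, which separated the groups, is one of them. Its promoter (chrX:162964600-162964849, minus strand) is shown because the match, in capitals, lies 142 bases before the start of a gene with all 4 restored animals higher. Such a match is a description of the sequence only.
S100g: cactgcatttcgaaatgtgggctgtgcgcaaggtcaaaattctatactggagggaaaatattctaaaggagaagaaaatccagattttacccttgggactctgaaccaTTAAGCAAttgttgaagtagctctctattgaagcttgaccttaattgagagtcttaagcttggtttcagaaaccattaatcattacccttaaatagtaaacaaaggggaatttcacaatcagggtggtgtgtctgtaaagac

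The C/EBP genes themselves overlapped between the groups. *Cebpa* was 63.2, 79.1, 77 and 53.4 CPM in non-restored and 75.4, 99.2, 74.5 and 111 CPM in restored animals (log2 fold change 0.40, SE 0.19, unadjusted p 0.0606). The log2 fold change was 0.25 (SE 0.397) for *Cebpb*, -0.04 (SE 0.192) for *Cebpd*, -0.10 (SE 0.166) for *Cebpg* and 0.04 (SE 0.345) for the stress-induced member *Ddit3*. Of 14 lineage factors tested, 2 had an unadjusted p under 0.05, against 5.98% of all genes, and they were picked out after their values were seen. *Id2*, an inhibitor of basic helix-loop-helix factors found at distal lung tips, was 69.5, 158, 83 and 77.5 CPM and 132, 166, 177 and 177 CPM (log2 fold change 0.75, SE 0.258). *Tead1*, the DNA-binding partner of YAP, was 445, 311, 330 and 415 CPM and 237, 265, 247 and 283 CPM, lower in every restored animal (log2 fold change -0.54, SE 0.154). Single libraries overlapped, with 248 CPM in the T1 library of non-restored animal 1 and 276 CPM in the Bulk library of non-restored animal 2. *Nkx2-1*, the lung lineage factor, was 136, 182, 152 and 141 CPM in non-restored and 121, 146, 149 and 155 CPM in restored animals and did not separate (log2 fold change -0.10, SE 0.144).

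MHC class II genes, which ATII cells also transcribe, had the highest median of the lists described here apart from cell type markers. All 8 had a log2 fold change above 0, with a median of 1.14, against 53.1% above 0 over all genes, and 2 had an unadjusted p under 0.05, against 5.98%. *Ciita*, the master regulator of the group, was 17.7, 19.4, 7.46 and 1.37 CPM in non-restored and 44.2, 57.9, 14.1 and 28.3 CPM in restored animals (log2 fold change 1.61, SE 0.666, unadjusted p 0.0412). *Cd74*, the invariant chain, was 586, 990, 351 and 71.6 CPM and 1211, 1524, 543 and 1235 CPM (log2 fold change 1.17, SE 0.687). *H2-Aa*, an alpha chain, was 123, 214, 70 and 9.12 CPM and 303, 367, 160 and 267 CPM (log2 fold change 1.39, SE 0.73). Non-restored animal 4 was the lowest and restored animal 2 the highest for all of these, and the middle values overlapped. *H2-DMa*, which loads peptides onto class II, was 23.4, 31, 10.7 and 9.12 CPM and 34.5, 55.9, 28.2 and 29.9 CPM (log2 fold change 0.98, SE 0.405). Without restored animal 1 and non-restored animal 4 the median of the group was 0.78 with 8 of 8 genes above 0. None of the 8 then had an unadjusted p under 0.05, against 3.19% of all genes. All 8 were higher in both title series, and the median without non-restored animal 2 was 1.83. The 12 blood cell markers summed to 17 to 32.2 CPM in non-restored and 12 to 43.6 CPM in restored animals, 2 of them (*Cd3e* and *Ly6g*) being at 0 in every animal, and their part in this result was not tested.

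Interferon and MHC class I genes depended on 1 animal. The median over 15 tested genes was 0.83. Of these 14 were above 0, against 53.1% of all genes, and 2 had an unadjusted p under 0.05, against 5.98%. *B2m*, the light chain of MHC class I, was 560, 269, 392 and 376 CPM in non-restored and 492, 2301, 292 and 350 CPM in restored animals. Restored animal 2 stood far above every other animal, and without it the median of the list was -0.03.

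Most genes of fatty acid and glycerolipid synthesis had small positive differences. Of 20 tested genes of fatty acid and glycerolipid synthesis 17 had a log2 fold change above 0, against 53.1% of all genes, with a median of 0.39 (0.22 without restored animal 1 and non-restored animal 4), and 4 had an unadjusted p under 0.05, against 5.98%. The median was 0.13 with the T1 and 0.56 with the Bulk libraries of the non-restored animals that have both. *Acsl4*, which activates polyunsaturated fatty acids, was 1154, 1217, 1269 and 815 CPM and 1601, 1588, 1952 and 1894 CPM, higher in every restored animal (log2 fold change 0.66, SE 0.182). The T1 library of non-restored animal 1 held 1574 CPM of *Acsl4*, past the lowest restored library (1564 CPM). *Scd1*, the stearoyl-CoA desaturase, was 5350, 3899, 4495 and 1665 CPM and 8958, 6843, 3806 and 6215 CPM (log2 fold change 0.75, SE 0.368), and restored animal 3 was below 3 of the non-restored animals. *Pcyt1a*, the rate-limiting enzyme of phosphatidylcholine synthesis, picked out after its values were seen, was 59.6, 52.1, 30.6 and 32.4 CPM and 70.1, 60.2, 78.6 and 73.8 CPM without overlap between animals (log2 fold change 0.69, SE 0.233, and 0.87 in *Trp53* wild-type tumors with an edgeR adjusted p of 0.0166). Its level in the T1 library of non-restored animal 1 was 72.2 CPM, inside the restored range. Sterol synthesis genes had a median of -0.17 over 20 genes. At an unadjusted p under 0.05 were 2 of them, in opposite directions, against 5.98% of all genes.

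Glycolysis genes had small negative differences, and none passed the test. The median over 17 genes was -0.39, and 15 were lower both within the JB and within the SP animals, against 27.6% of all genes. None had an unadjusted p under 0.05. *Gapdh* was 756, 549, 676 and 926 CPM in non-restored and 240, 595, 563 and 515 CPM in restored animals (log2 fold change -0.60, SE 0.28, unadjusted p 0.0573). *Ldha*, which turns pyruvate to lactate, was 1911, 1073, 1234 and 1749 CPM and 530, 1343, 1055 and 1178 CPM (log2 fold change -0.54, SE 0.296). The lowest values of both belonged to restored animal 1, the animal with the fibroblast markers, and restored animal 2 lay within the non-restored range. Leaving out restored animal 1 and non-restored animal 4 gave a median of -0.14. The list summed to 6408 and 6431 CPM in the Bulk libraries of non-restored animal 1 and to 2924 CPM in its T1 library, below restored animals 2, 3 and 4. Hypoxia genes outside glycolysis had a median of -0.12 over 17 genes, which turned to 0.04 without restored animal 1 and non-restored animal 4. Without these animals 5 of the 17, in either direction, had an unadjusted p under 0.05, against 3.19% of all genes. In all 8 animals 3 of the 17 were lower at an unadjusted p under 0.05, against 2.72% of all genes. Besides *Stc1* these were *Hilpda*, a lipid droplet protein (24.9, 16.1, 41.1 and 80.7 CPM and 9.95, 16.3, 24.5 and 15.6 CPM, log2 fold change -1.29, SE 0.494), and the mitochondrial protein gene *Higd1a* (108, 92.7, 104 and 72.1 CPM and 65, 76.3, 54.1 and 64 CPM, log2 fold change -0.53, SE 0.171). *Vegfa*, the vascular growth factor, was 172, 165, 168 and 291 CPM and 152, 199, 119 and 103 CPM and overlapped. For 20 respiratory chain genes the median was -0.12, with 2 lower at an unadjusted p under 0.05, against 2.72% of all genes.

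Among 20 tested genes of the CRTC and CREB axis, 13 had a log2 fold change below 0, against 46.9% of all genes, with a median of -0.22, and 3 had an unadjusted p under 0.05, all lower, against 2.72%. *Nr4a1*, an orphan nuclear receptor gene induced by cAMP, was 209, 249, 199 and 304 CPM in non-restored and 141, 211, 87.3 and 86.4 CPM in restored animals (log2 fold change -0.86, SE 0.293, unadjusted p 0.0157). *Dusp1*, a MAP kinase phosphatase, was 1149, 641, 689 and 1302 CPM and 599, 671, 595 and 533 CPM (log2 fold change -0.65, SE 0.24). *Fos* was 1931, 1628, 1445 and 1802 CPM and 1137, 1623, 1271 and 899 CPM (log2 fold change -0.46, SE 0.202). Restored animal 2 lay in the non-restored range for all of these. They also respond to tissue dissociation. A list of 11 immediate early and stress genes had a median of -0.27. In it 0 of 11 were above 0, against 53.1% of all genes, and 1, *Fos*, had an unadjusted p under 0.05, against 5.98%. The part of dissociation in the CREB genes was not tested. Without restored animal 1 and non-restored animal 4 the median of the CREB list was -0.38, and none of its 20 genes had an unadjusted p under 0.05.

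*Ptprn*, which encodes the secretory granule phosphatase-like protein IA-2, was 345, 276, 331 and 125 CPM without restoration and 48.6, 197, 76.3 and 48.4 CPM with it (log2 fold change -1.54, SE 0.526, unadjusted p 0.0189). Restored animals 1, 3 and 4 were below all non-restored animals, and restored animal 2 was above non-restored animal 4. In *Trp53* wild-type tumors *Ptprn* fell with a log2 fold change of -3.53 (edgeR adjusted p 2.08e-05). Its paralog *Ptprn2* was 3.93, 4.34, 3.91 and 3.19 CPM and 9.25, 5.57, 4.54 and 10.6 CPM, higher in every restored animal (log2 fold change 0.96, SE 0.358, unadjusted p 0.0232). Single libraries overlapped for *Ptprn2*, with 7.34 CPM in the T1 library of non-restored animal 1 and 5.28 CPM in the Bulk library of non-restored animal 2. Only 6 of 18 secretory granule genes passed the filter on low counts, and their median was 0.40. Of these 3 were above 0, against 53.1% of all genes, and 3 were below.

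The core of the CREB site, TGACG on either strand, was present in the 250 bases before the start of 11 of 17 genes of the CREB list with a RefSeq promoter, against 17.9% of all promoters and 28.0% of those of tested genes. The full palindrome, TGACGTCA, which contains the core, was present in 1 of the 17, against 1.62% of all promoters. *Nr4a1* (chr15:101266596-101266845, plus strand) and *Ptprn* (chr1:75264209-75264458, minus strand) are shown because they were lower in most restored animals, and *Slc39a8* (chr3:135825029-135825278, plus strand) because it was higher in all of them and holds the same letters. Core sites are in capitals. *Nr4a1* has 4, which begin 233, 213, 69 and 40 bases before the start, *Ptprn* has 2, at 117 and 80 bases, and *Slc39a8* has 1, at 31 bases. The letters were thus found before genes of either direction.
Nr4a1: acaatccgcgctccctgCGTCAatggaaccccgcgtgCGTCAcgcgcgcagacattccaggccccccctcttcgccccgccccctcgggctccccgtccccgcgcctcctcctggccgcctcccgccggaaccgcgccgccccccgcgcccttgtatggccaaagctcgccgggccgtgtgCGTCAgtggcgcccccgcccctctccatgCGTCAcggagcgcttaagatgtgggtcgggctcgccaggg
Ptprn: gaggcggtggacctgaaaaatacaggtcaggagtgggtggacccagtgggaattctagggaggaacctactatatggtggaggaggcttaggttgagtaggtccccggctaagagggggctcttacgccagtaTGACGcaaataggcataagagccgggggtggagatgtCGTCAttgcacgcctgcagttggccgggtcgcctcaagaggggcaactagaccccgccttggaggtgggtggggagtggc
Slc39a8: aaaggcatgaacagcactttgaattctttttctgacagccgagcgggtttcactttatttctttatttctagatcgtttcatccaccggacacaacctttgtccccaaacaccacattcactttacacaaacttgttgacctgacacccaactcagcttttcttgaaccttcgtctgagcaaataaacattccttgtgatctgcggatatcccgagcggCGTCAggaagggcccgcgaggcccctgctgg

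Mesenchymal and adhesion genes held both directions, with some integrin genes lower in most restored animals. The median over 20 genes was 0.36, and it turned to -0.48 without restored animal 1 and non-restored animal 4. The 4 with an unadjusted p under 0.05 were all lower, against 2.72% of all genes. *Itgav*, the alpha V integrin, was 841, 665, 690 and 686 CPM in non-restored and 496, 587, 536 and 394 CPM in restored animals (log2 fold change -0.52, SE 0.163), and its partner *Itgb3* was 50.5, 33.2, 59 and 93 CPM and 17.8, 29.8, 21.8 and 5.2 CPM (log2 fold change -1.65, SE 0.499). Every restored animal was below every non-restored one for both subunits. In single libraries this held for *Itgav* but not for *Itgb3*, which was 16.2 CPM in the T1 library of non-restored animal 1 and 19.7 CPM in the Bulk library of non-restored animal 2. Animals were also separated for *Tgfbi*, a TGF-beta-induced matrix protein, at 197, 455, 307 and 151 CPM and 81.9, 130, 29.1 and 46.8 CPM (log2 fold change -1.94, SE 0.514, DESeq2 adjusted p 0.0119), though the Bulk libraries of non-restored animal 1 held 122 and 113 CPM. *Itga2*, the collagen receptor subunit, was 2406, 731, 2367 and 2532 CPM and 308, 1205, 751 and 1109 CPM (log2 fold change -1.25, SE 0.495), with non-restored animal 2 inside the restored range. *Itgav* and *Itgb3* fell in *Trp53* wild-type tumors (log2 fold changes -1.07 and -2.81, edgeR adjusted p 0.000349 and 0.000246).

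Alveolar type I genes had a median of 0.16 over 16 genes, and -0.35 without the same 2 animals. *Cav1*, the caveolar coat protein, was 38, 21.2, 19.9 and 31.5 CPM and 53.2, 66.4, 72.7 and 40.3 CPM, higher in every restored animal (log2 fold change 1.07, SE 0.265, unadjusted p 0.00239). It is also high in fibroblasts and endothelium. The Bulk libraries of non-restored animal 1 held 40.3 and 48.7 CPM of *Cav1*, inside the restored range. *Gprc5a*, a retinoic acid-induced receptor of the lung, was 376, 291, 345 and 442 CPM and 209, 292, 226 and 299 CPM (log2 fold change -0.50, SE 0.178). Of 13 genes of the transitional state between ATII and ATI cells 11 had a log2 fold change below 0, against 46.9% of all genes. Their median was -0.44 (-0.17 without the 2 animals). The exception that reached an unadjusted p under 0.05 was *Itgb6*, which pairs with *Itgav* to activate TGF-beta. It was 91.3, 89.5, 66.8 and 79.8 CPM and 119, 109, 126 and 143 CPM, higher in every restored animal (log2 fold change 0.60, SE 0.151).

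Proliferation genes had opposite medians in the title series. Over 33 genes the median was -0.14, and it was 0.22 within the JB animals and -0.55 within the SP animals. *Cdk1*, the mitotic kinase, was 6.2, 8.37, 6.22 and 6.38 CPM and 4.39, 3.98, 4.09 and 2.94 CPM (log2 fold change -0.82, SE 0.309), and the helicase subunit gene *Mcm3* was 5.95, 9.3, 6.58 and 4.56 CPM and 13.9, 11.3, 9.09 and 11.1 CPM (log2 fold change 0.77, SE 0.288). All of these levels were low. Genes induced by p53, measured here where p53 is deleted, had a median of -0.23 over 21 genes, with 2 lower at an unadjusted p under 0.05, against 2.72% of all genes. *Btg2*, an antiproliferative gene, was 268, 233, 236 and 226 CPM and 161, 183, 206 and 188 CPM, lower in every restored animal (log2 fold change -0.38, SE 0.128). *Gdf15*, a stress-induced cytokine, was 15.7, 4.96, 12.8 and 29.6 CPM and 2.31, 10.5, 2.73 and 2.26 CPM (log2 fold change -1.75, SE 0.662). *Cdkn1a*, which encodes the cell cycle inhibitor p21, was 124, 89.5, 145 and 169 CPM and 65.9, 170, 76.3 and 88 CPM and overlapped. Lysosomal, folliculin and TFE genes had a median of 0.03 over 16 genes, and 2 were higher at an unadjusted p under 0.05, against 3.25% of all genes.

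**Figure D4:**
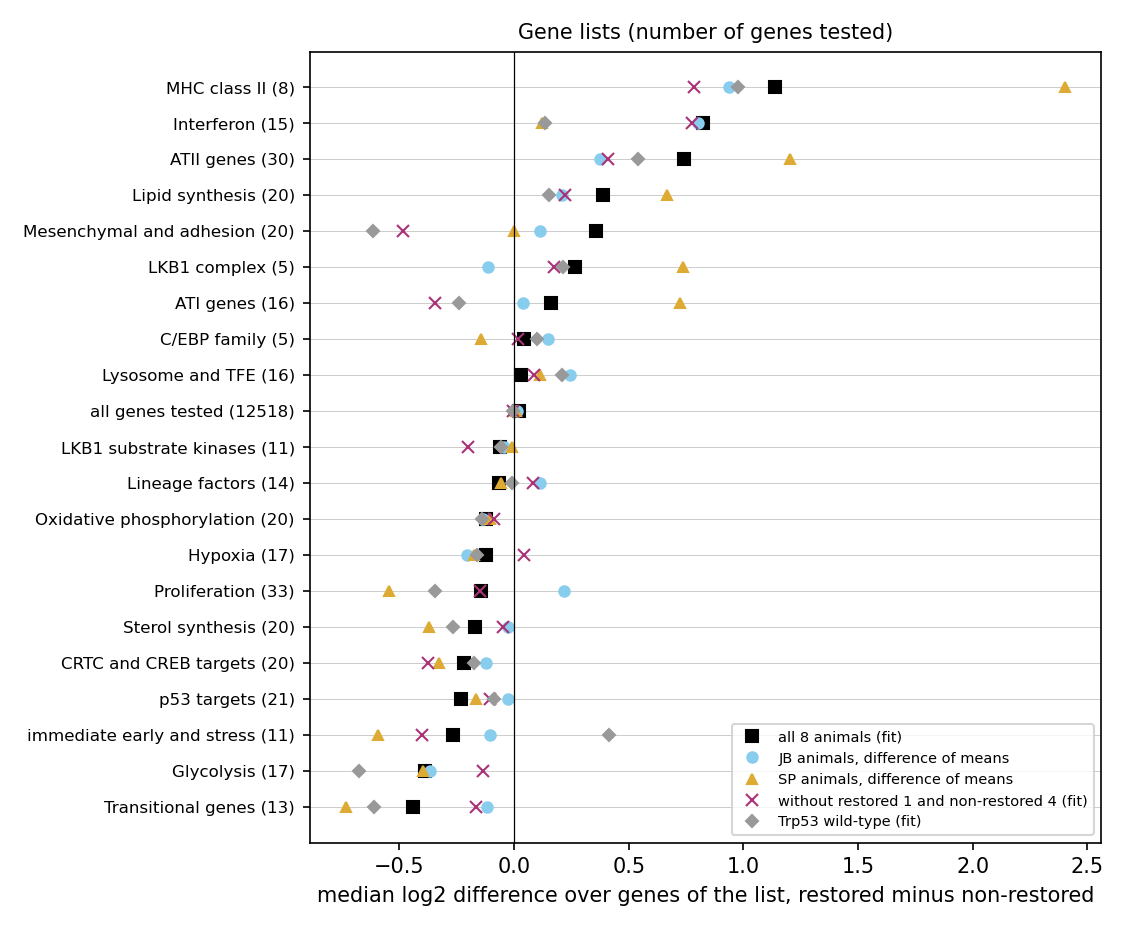
Median log2 difference between restored and non-restored animals over the tested genes of 20 lists and of all genes (number of genes in brackets), for all 8 animals, for JB and SP animals alone, without restored animal 1 and non-restored animal 4, and for *Trp53* wild-type tumors. MHC class II (1.14), interferon (0.83) and ATII genes (0.74) lie highest, and transitional genes (-0.44) and glycolysis (-0.39) lowest. The adhesion, ATI, hypoxia and lineage factor lists change sign without the 2 animals, as does the median of all genes, which is near 0.

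The study made the Trp53-deficient cohort to learn whether loss of p53 alters the response to *Lkb1* restoration, and the change was therefore set beside that in *Trp53* wild-type tumors, where edgeR called 230 of 11573 genes (1.99%) between 7 restored and 10 non-restored libraries. The study gives fewer mice than libraries for these groups, so some libraries may share an animal, which the labels do not show. If they do, their p-values are too small. The wild-type tumors had grown for 24 to 27 weeks and the Trp53-deficient ones for 16 to 19 weeks. Loss of p53 and tumor age therefore cannot be told apart when the backgrounds are compared. Of the 230, 228 were tested in the Trp53-deficient animals, and the groups share no animals. The direction was the same for 206 of 228 (90.4%), against 66% of the 11387 genes tested in both, and 66 of 228 (28.9%) had an unadjusted p under 0.05 in the Trp53-deficient animals, against 6.06%. All 66 had the direction seen in wild-type tumors. Without restored animal 1 and non-restored animal 4 the shares were 87.7% in direction and 20.2% at an unadjusted p under 0.05, against 3.19% of all genes. Sizes were mostly smaller. The median log2 fold change of the 121 genes that rose in wild-type tumors was 0.51 here and 0.90 there, and that of the 107 that fell was -0.37 here and -0.78 there. Calling a gene selects for a large value in the group where it was called, so a smaller value in the other group is built into this comparison. As a description across these 228 genes, which are not independent, Pearson's r of the fold changes was 0.85.

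**Figure D5:**
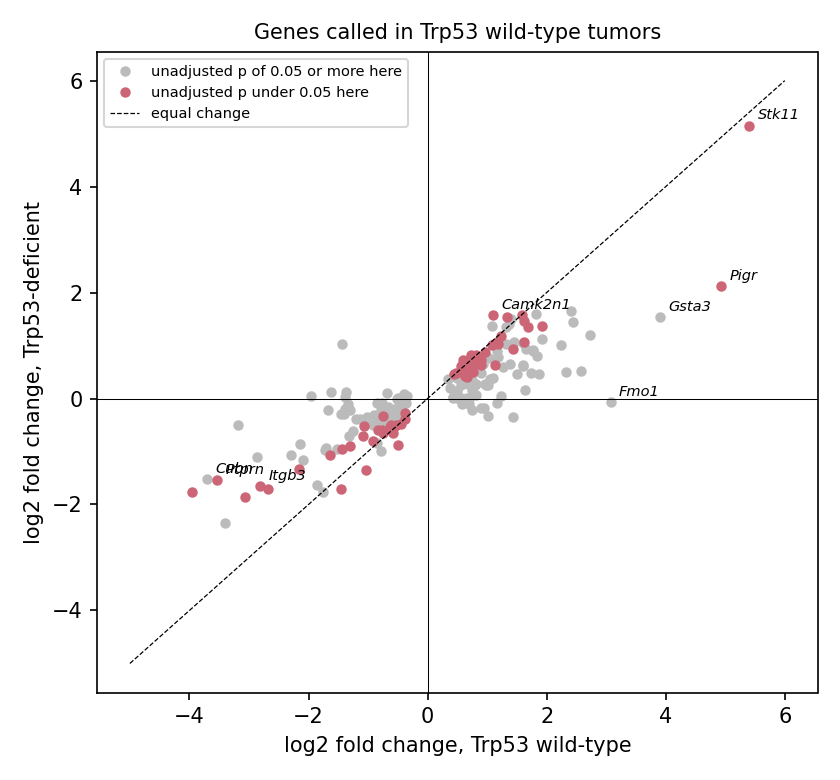
Log2 fold changes on restoration of the 228 genes called in *Trp53* wild-type tumors, in wild-type tumors (horizontal axis) and in Trp53-deficient tumors (vertical axis), with genes at an unadjusted p under 0.05 in red and a dashed line for equal change. In 206 of 228 genes the point lies in a quadrant of the same direction, and most points lie nearer to 0 on the vertical axis than the dashed line.

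Some genes called in wild-type tumors were picked out for a small p in the Trp53-deficient animals after their values were seen, and edgeR called none of them here. Besides *Camk2n1*, *Wee1* and *Arid5b* these included *Slc31a1*, the high-affinity copper importer (85.2, 103, 81.6 and 67 CPM and 141, 123, 119 and 139 CPM, log2 fold change 0.63 here and 0.90 in wild-type tumors), and *Prdx6*, a peroxidase and phospholipase of surfactant turnover (190, 204, 170 and 167 CPM and 286, 240, 333 and 243 CPM, 0.59 here and 0.68 there). *Ehf*, an epithelial ETS factor, was 91.5, 125, 179 and 88 CPM and 188, 230, 238 and 205 CPM (0.83 here and 0.81 there). All of these were higher in every restored animal. For *Slc31a1* the T1 library of non-restored animal 1 held 125 CPM, inside the restored range. *Prokr1*, the prokineticin receptor, was 29.4, 36.6, 61.8 and 33.7 CPM and 7.86, 15.9, 17.7 and 21.9 CPM, lower in every restored animal (-1.35 here and -1.04 there). Of 30 ATII genes 29 had the same sign in both backgrounds, with a median of 0.54 in wild-type tumors, as did all 8 MHC class II genes (0.98) and 15 of 16 glycolysis genes tested in both (-0.68).

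The difference between the backgrounds, which also differ in tumor age, was tested directly as an interaction in 25 units. Of these units 17 were wild-type libraries that were treated as separate animals although some may share one. Of 13705 genes 0 (0%) passed, the smallest adjusted p from edgeR being 1.00, and 424 (3.09%) had an unadjusted p under 0.05. DESeq2 called 0 genes and had 453 at an unadjusted p under 0.05. For *Stk11* the interaction was -0.32 on the log2 scale (unadjusted p 0.665). The smallest p-values included *Col4a5*, with a log2 fold change of 1.07 here and -0.31 in wild-type tumors (unadjusted p 0.000901), and *Ajuba*, a LIM protein of the Hippo pathway, with -0.10 here and -1.34 there (unadjusted p 0.00106). Of the 11 immediate early and stress genes 7 had an unadjusted p under 0.05, with a median of -0.27 here and 0.42 in wild-type tumors. No ATII or MHC class II gene had one, out of 30 and 8 tested.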

How the data were processed

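RNA of sorted tumor cells was sequenced as paired ends from libraries depleted of ribosomal RNA. The authors aligned reads to mm10 with STAR 2.6.1d and estimated abundance with RSEM 1.2.30. The deposited expected counts are RSEM estimates of read pairs per gene, with 5.76% of values not whole because shared reads are divided between genes. TPM values, scaled for effective length and library size, were recomputed per animal from the summed counts and the mean deposited effective lengths. They were used only to rank genes of a list. Tables of the authors' DESeq2 comparisons (log2 fold changes and p-values) and of normalized counts were not used. Of 53558 genes named by symbol, 51849 had one location in GENCODE M21, the source of gene coordinates.

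Expected counts were rounded, summed per animal, filtered with filterByExpr and scaled by TMM. Restored and non-restored animals (4 and 4) were compared without covariates by the quasi-likelihood F test of edgeR 4.0.16 (robust dispersion, R 4.3.3) with Benjamini-Hochberg adjustment, threshold 0.05. A prior count of 2 was used for logs. The interaction was fitted in 25 units. DESeq2 1.42.0 was an alternative, with the others listed in the closing section. Scripts were tested on simulated data. Promoters came from RefSeq. Labels do not name separate cultures or dates, and depth limits low genes: a count of 0 allowed 0.363 to 1.4 CPM, the level of 3 counts.

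The members and gene lists were chosen with earlier results of these data known. Genes named were *Stk11* and *Trp53*, the 5 smallest p-values in each direction (since fewer than 5 passed), up to 4 of the most abundant members of each list and any member of the LKB1 complex, kinase, ATII and C/EBP lists. Others are said to be chosen after their values were seen, as were list members named for an unadjusted p under 0.05. Leaving out restored animal 1 and non-restored animal 4 was chosen after seeing the data. One allele carried by all animals and 1 gene are not reported here.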

Additional observations from a re-analysis of the deposited data

Results flagged for a closer look

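In 230 groups of 4 animals (each named gene and each summed list, in restored or non-restored animals), 25 held 1 animal far from the other 3 by Dixon's criterion, or 10.9%. Chance flags about 1 in 20 groups of normally distributed values, and CPM are skewed.

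Restored animal 2 stood apart for *B2m* (2301 CPM, next animal 492 CPM) and the sum of the interferon list (4834 CPM, next 1213 CPM). It was also far above the other restored animals for *Il33* (1690 CPM), *Gdf15* (10.5 CPM) and *Mark2* (116 CPM). Restored animal 1 was highest for the summed fibroblast markers (1568 CPM, next 249 CPM) and lowest for *Cab39* (205 CPM). Restored animal 3 was highest for *Camk2n1* (115 CPM), *Prkaa1* (119 CPM) and the summed globins (3.64 CPM), and restored animal 4 for *Cxcl15* (11742 CPM, next 7214 CPM).

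Non-restored animal 4 was far above the other non-restored animals for *Muc5b* (12875 CPM, next 575 CPM), the summed airway markers (12885 CPM), *Epcam* (644 CPM), *Rad18* (53.4 CPM) and *Vegfa* (291 CPM), and far below them for *Lyz2* (44.7 CPM, next 925 CPM) and *Napsa* (232 CPM, next 611 CPM). Non-restored animal 2 was highest for *Id2* (158 CPM), *Col4a5* (20.9 CPM) and *Cdk1* (8.37 CPM) and lowest for *Itga2* (731 CPM). Non-restored animal 1 was highest for *Itgav* (841 CPM), the immediate early and stress genes (9956 CPM in sum) and the summed globins (3.55 CPM).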

How the results depend on the processing

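In 23 alternative settings no named gene that passed had the direction opposite to the main fit. No gene passed in the main fit itself, so there was no call that could reverse. The count of called genes, 0, was 0 under another scaling (median of ratios), with at least 10 counts in every animal, with Bulk or T1 libraries only, with title series or sex in the model, in female or JB animals only, and without restored animal 1 and non-restored animal 4 (408 genes at an unadjusted p under 0.05). It was 3 with no filter (*Camk2n1*, *Pgm5* and *Stk11*), 23 with DESeq2, 1 (*Stk11*) with effective length offsets and with libraries not summed, 3 in SP animals only (Gzme, Sprr2a2 and Sprr2a3, all lower) and 3 in the fit of 25 units (*Stk11*, *Camk2n1* and *AC160336.1*). Leaving out 1 animal gave 0 to 1 calls, the 1 being *Stk11* without non-restored animal 3. The cause of these moves was not tested. The count for the difference between backgrounds, 0, was 1 in female animals only and 0 to 1 when 1 animal was left out (1 without non-restored animal 2), each time *AC160336.1*, an unnamed gene model.

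The log2 fold change of *Stk11* was 5.11 with no filter, 5.45 with effective length offsets, 5.03 with libraries not summed and 5.09 in the fit of 25 units, each past the threshold, and 4.74 to 5.61 when 1 animal was left out. It ranged from 4.49 to 6.26 over all settings. DESeq2 gave *Stk11* no adjusted p, and with at least 10 counts in every animal it was not tested. Of 86 named genes 15 passed under at least 1 setting and 22 took the other sign without passing. Of 573 medians of lists 549 stayed within 1 SD between animals. Leaving out 1 animal turned the sign of the medians of adhesion genes (-0.17 without restored animal 1), secretory granule genes (-0.20 without restored animal 3), ATI genes (-0.13 without non-restored animal 4), interferon genes (-0.03 without restored animal 2), hypoxia genes (0.03 without non-restored animal 1) and proliferation genes (0.03 without restored animal 4). The same held for LKB1 substrate kinases (0.05 without non-restored animal 1), lineage factors (0.05 without non-restored animal 4) and C/EBP genes (-0.03 without non-restored animal 3). The medians of fibroblast, endothelial, blood cell and airway markers and of all genes also took the other sign when 1 animal was left out. The number of wild-type calls with the same direction was 174 to 212, the lowest with at least 10 counts in every animal, where fewer genes were tested. No paired analysis was possible because the titles of the Trp53-deficient animals carry no replicate numbers shared between the groups. The title series as a block gave 0 calls and 920 genes at an unadjusted p under 0.05.

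With 4 animals a group, pooled control arms and restored animals of 1 sex, low genes and small differences were not detectable at this depth. Large differences could miss the threshold too, as for *Stk11* (log2 fold change 5.15, edgeR adjusted p 0.0587) and *Camk2n1* (1.57, edgeR adjusted p 0.273). The count of 0 calls therefore does not exclude large changes.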
